A study of Mus musculus with 6 samples.

Results

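Nuclear receptors are transcription factors that are switched by small lipophilic ligands or, in orphan members, by their own level. The genes described here are 27 members of that superfamily, 5 of the coregulators that they recruit and Dio2, which encodes the deiodinase that activates thyroid hormone. All 33 were found by gene symbol among the 55421 rows of the count table. Messenger RNA was measured by sequencing in macrophages grown from mouse bone marrow, labelled WT in both groups, with macrophage colony-stimulating factor (M-CSF). Cells in 3 wells were kept for 24 h in RPMI-1640 that held M-CSF at 20 ng/mL, 10% fetal bovine serum and antibiotics (1% penicillin/streptomycin). Cells in the other 3 wells had the same kind of medium mixed in equal volume with medium from LL-2 cells, a mouse Lewis lung carcinoma line. The labels do not say whether the wells came from separate animals, so the tests speak only of variation among these 6 wells, which may be technical. The design has no medium conditioned by a non-tumour cell, and mixing also lowered the share of fresh medium, so these influences cannot be told apart from products of the tumour cells.

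The receptors fall into classes by how they work. Steroid receptors such as the glucocorticoid receptor wait in the cytoplasm on chaperones until a hormone arrives. Retinoic acid, thyroid hormone, vitamin D, oxysterol (LXR) and fatty acid (PPAR) receptors sit on DNA as heterodimers with a retinoid X receptor (RXR). They hold corepressors without ligand and coactivators with it. In macrophages, LXR and PPAR gamma are known for control of lipid handling and for damping inflammatory genes, and the NR4A receptors for rapid induction by inflammatory and cAMP signals.

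Libraries held 24179548 to 30040682 counts. The macrophage markers Lyz2, Csf1r, Adgre1, Cd68, Itgam, Mertk, Fcgr1 and Cd14 were detected in each well, with summed levels of 50993 to 60276 TMM-scaled CPM (counts scaled to library size) in untreated and 57207 to 61866 CPM in conditioned-medium wells. Most of that sum was Lyz2, and 6 of the 8 were called in opposite directions. Csf1r, Itgam and Mertk rose (log2 fold changes 0.49, 0.55 and 0.34), while Adgre1, Cd68 and Fcgr1 fell (-0.39, -0.66 and -0.42). Mast cell and basophil markers summed to 13.5 to 16.5 CPM untreated and 4.78 to 9.09 CPM in conditioned medium, and 5 of 5 tested fell, but 3, 1 and 2 without untreated replicate 1, untreated replicate 2 and conditioned-medium replicate 1. Dendritic cell markers summed to 18.9 to 27.0 and 8.98 to 14.6 CPM, and 3 of 5 fell, but 1 without untreated replicate 1 or 2 or conditioned-medium replicate 2 or 3. Neutrophil markers summed to 348 to 494 and 422 to 510 CPM, with 1 of 8 higher and 2 lower, or 5 higher and 2 lower with the wells' replicate number as a block. Without both wells numbered 3, 8 of the 8 neutrophil markers were called, and 5 or 6 without the untreated or the conditioned-medium one. Lymphocyte markers summed to 5.01 to 6.02 and 3.47 to 4.59 CPM, with 1 of 4 lower, and 0 without untreated replicate 1 or 3 or conditioned-medium replicate 1. Stromal and epithelial markers summed to 8.42 to 34.5 and 14.2 to 42.9 CPM, with 0 of 4 called by edgeR, DESeq2 or limma-voom, 0 at an unadjusted p under 0.05, and 2 higher with the block. None of these marker genes was at 0 in all 6 wells. The part of such cells in the changes described here was not tested, and in bulk RNA fewer cells of a type and less RNA per cell cannot be told apart.

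Dio2 had the largest change of the 33 genes. Regulation of Dio2 by cAMP is textbook knowledge, and the NR4A genes are likewise known cAMP-induced genes, so the bases upstream of their RefSeq start sites are shown to let a reader compare them (GRCm38.p6, 5′ to 3′ on each gene's own strand). Only bases upstream of the start that lie in no GENCODE exon are printed. Capitals mark TGACG, the core of the cAMP response element, and TATAAA where it occurs, each on either strand. On the other strand TGACG reads as CGTCA and TATAAA as TTTATA. The TTTATA of Nr4a2 begins 164 bases before the start, and only the Dio2 stretch holds TATAAA on the gene's own strand.
Dio2, chr12:90739039-90739288, minus strand: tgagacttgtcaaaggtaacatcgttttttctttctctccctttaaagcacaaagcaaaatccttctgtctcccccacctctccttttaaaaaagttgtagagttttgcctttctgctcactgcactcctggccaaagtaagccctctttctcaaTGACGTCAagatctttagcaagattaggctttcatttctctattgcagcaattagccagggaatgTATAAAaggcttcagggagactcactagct
Nr4a1, chr15:101266596-101266845, plus strand: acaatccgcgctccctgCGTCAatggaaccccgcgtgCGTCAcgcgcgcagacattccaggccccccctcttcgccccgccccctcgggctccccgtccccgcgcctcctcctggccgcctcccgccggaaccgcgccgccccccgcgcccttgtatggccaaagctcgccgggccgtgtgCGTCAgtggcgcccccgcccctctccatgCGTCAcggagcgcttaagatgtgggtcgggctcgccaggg
Nr4a2, chr2:57124004-57124253, minus strand: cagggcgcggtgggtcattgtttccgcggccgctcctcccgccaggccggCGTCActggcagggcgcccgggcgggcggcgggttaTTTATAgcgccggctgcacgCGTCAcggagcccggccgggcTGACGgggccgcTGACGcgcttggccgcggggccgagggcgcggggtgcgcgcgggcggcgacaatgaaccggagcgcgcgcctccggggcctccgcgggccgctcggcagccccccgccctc
Nr4a3, chr4:48045055-48045152, plus strand: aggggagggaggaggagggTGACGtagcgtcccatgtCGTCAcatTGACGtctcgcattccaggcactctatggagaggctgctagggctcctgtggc
The Dio2 stretch holds a full palindromic element, TGACGTCA, whose first base lies 95 bases before the start, and a TATAAA 30 bases before it. That start lies 600 bases outside the gene as the count table defines it, so reads within that stretch were not counted for Dio2. The full element occurs in the 250 upstream bases of 1.55% of all 32851 RefSeq promoters, and among the 29 of 33 genes with a promoter in the table it was found for Dio2 alone. Those 29 genes had 43 promoters, and a gene counted if any of its promoters held a motif. The percentages count each promoter once, so gene counts and percentages are not on the same scale. The core TGACG, which is part of the full element, occurs in 17.8% of promoters and in those of 11 of the 29 genes. Of those 11 genes, 3 rose, 2 fell, 5 did not pass the test and 1 could not be tested. The core was found 4 times before Nr4a1, 4 times before Nr4a2 and 3 times in the shorter Nr4a3 stretch, a density of at least 3 that 0.688% of all promoters reach. AGGTCA, the site that most receptors of this family bind, occurs in 14% of promoters and in those of 6 genes, of which 2 rose, 2 fell and 2 did not pass the test. The motifs were chosen after the values were seen and searched on both strands, and a match is a description of letters, not of binding.

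Levels of 30 of the 33 genes could be tested. Of these, 10 rose and 6 fell in conditioned medium (edgeR's quasi-likelihood test, adjusted p under 0.05 over 13853 genes), against 27.9% of all tested genes called, 12.6% higher and 15.2% lower. The 33 genes were chosen with earlier results of these data known. An excess over the shares of all genes given here is therefore no independent evidence about the family. Without scaling beyond the total count 13 rose and 5 fell, or 72.2% of calls higher against 62.5% with TMM scaling. Over all genes these shares were 60.8% and 45.3%. Among the 30, the median log2 fold change was 0.10, and over all tested genes it was 0.01. With the replicate number as a block 11 rose and 6 fell, against 36.3% of all genes called with that block. Levels did not overlap between the groups for 19 of the 30, against 42.8% of all tested genes. The 16 called genes were all among those without overlap. Their same direction in each of the 3 pairs of wells that share a number follows from that and adds nothing. Rises were small, none above a log2 fold change of 0.80, while 4 genes fell by more than 2-fold. A change beyond 1.5-fold was called by edgeR's glmTreat for 5 of the 30, namely Dio2, Nr1h3, Pparg, Nr4a3 and Rara, against 3.49% of all tested genes.

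**Figure D1:**
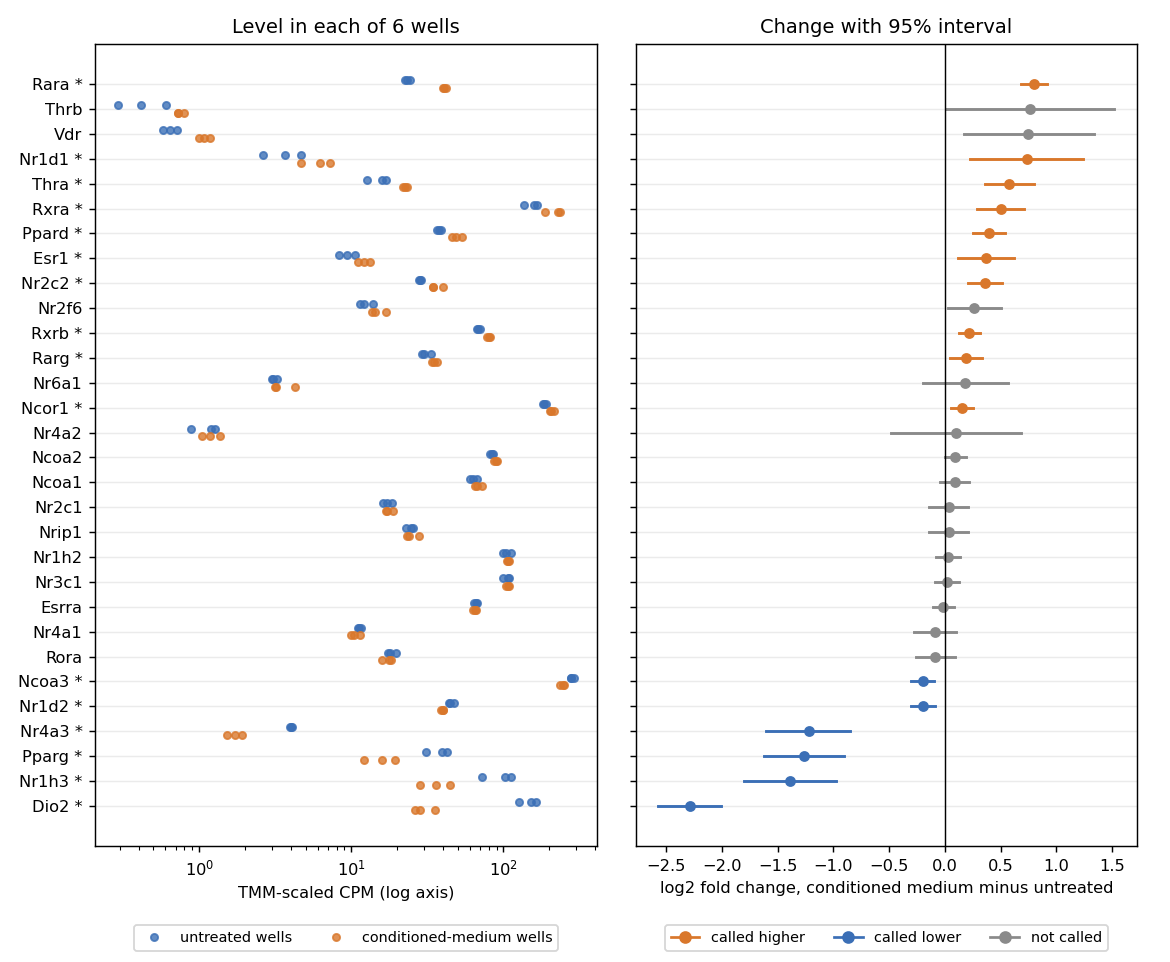
The left panel plots the TMM-scaled CPM of the 30 tested genes in each of the 6 wells on a log axis, and the right panel the log2 fold change (conditioned medium minus untreated) with its 95% interval, with called genes starred. Dio2, Nr1h3, Pparg and Nr4a3 lie apart at the bottom with log2 fold changes of -2.29 to -1.22, while the rises reach 0.80 for Rara.

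Dio2 converts the prohormone T4 to the receptor ligand T3 inside the cell. Its gene (ENSMUSG00000007682, chromosome 12, 90724552 to 90738438, GRCm38) was at 151, 163 and 126 CPM in the untreated wells and 28.1, 35.6 and 26.3 CPM in the conditioned-medium wells. The lowest untreated well stood far above the highest conditioned-medium well. The change was a 4.89-fold fall (log2 fold change -2.29, SE 0.12, adjusted p = 2.54e-06). A change beyond 1.5-fold was called with each alternative in which it was tested, which leaves out DESeq2 and limma-voom. Wells that share replicate number 1, 2 or 3 differed by -2.43, -2.20 and -2.26 on the log2 scale. The conditioned-medium wells together still gave 2707 Dio2 counts.

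One receptor gene for the hormone that Dio2 makes rose. Thra, which encodes thyroid hormone receptor alpha (chromosome 11, 98740638 to 98769006), was at 16.8, 15.9 and 12.7 CPM untreated and 23.2, 22.6 and 21.9 CPM in conditioned medium. The groups did not overlap, and the rise was 1.49-fold (log2 fold change 0.58, SE 0.10, adjusted p = 0.00215). Thrb, the beta receptor gene, was scarce, with 7, 10 and 15 counts untreated and 22, 22 and 23 counts in conditioned medium. Its log2 fold change of 0.76 had an interval of 0.01 to 1.52 and did not pass the test (adjusted p = 0.127). Per exon length, Thra stood 62.6 ± 29.3 times above Thrb in untreated wells and 48.7 ± 3.78 times in conditioned-medium wells (SD, n = 3 each). The wells of both groups overlapped in that ratio (exact permutation test, two-sided, p = 0.7).

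Of 7 genes for thyroid hormone transport and turnover, 3 could be tested and 1 fell. It was Slc16a10, an aromatic amino acid and thyroid hormone transporter gene, which went from 160 ± 5.62 to 123 ± 0.300 CPM (log2 fold change -0.38, adjusted p = 0.000196). With the replicate block Slc3a2, the heavy chain of an amino acid transporter, fell too (2 genes in all), and DESeq2, no low-count filter and leaving out untreated replicate 3 each also called 2. The other deiodinase genes were nearly absent, Dio1 with 1, 1 and 0 counts untreated and none in conditioned medium, and Dio3 with 2 counts in a single conditioned-medium well. Among 6 genes for selenoprotein synthesis, which Dio2 protein requires, 0 passed edgeR's test, with 1 at an unadjusted p under 0.05. DESeq2 and limma-voom called 0, and the block called Sephs2 higher (adjusted p = 0.00127). Robust dispersion, no scaling, no low-count filter and leaving out untreated replicate 3 each called 1 gene of that list. Of 4 genes for turnover of the deiodinase protein, the deubiquitinase genes Usp20 and Usp33 rose by log2 fold changes of 0.23 and 0.19. With the replicate block the ubiquitin ligase gene Wsb1 was also called, lower (log2 fold change -0.14, adjusted p = 0.0429). DESeq2 called neither, and leaving out untreated replicate 2, untreated replicate 3 or conditioned-medium replicate 1 left 0 calls in that list, while leaving out untreated replicate 1 or conditioned-medium replicate 3 left 1.

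The lipid-sensing receptors split by paralog. Nr1h3, encoding LXR alpha (chromosome 2, 91184061 to 91202834), was at 102, 112 and 72.3 CPM in untreated wells. In conditioned-medium wells it was at 35.8, 44.7 and 28.4 CPM. Each conditioned-medium well lay below each untreated well, a 2.63-fold fall (log2 fold change -1.39, SE 0.18, adjusted p = 0.000468). The call beyond 1.5-fold (adjusted p = 0.0102) was lost without conditioned-medium replicate 1 (0.0602) and with robust dispersion (0.202). Nr1h2, encoding the ubiquitous paralog LXR beta, was at 99.8, 104 and 112 CPM untreated and 106, 108 and 109 CPM in conditioned medium. These wells overlapped, and the log2 fold change of 0.03 had an interval of -0.08 to 0.14 (adjusted p = 0.692). Per exon length, the Nr1h3 to Nr1h2 ratio was 1.37, 1.43 and 0.860 untreated and 0.449, 0.555 and 0.347 in conditioned medium.

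Pparg, encoding PPAR gamma (chromosome 6, 115360951 to 115490399), was at 42.4, 39.7 and 31.1 CPM untreated and 15.9, 19.3 and 12.1 CPM in conditioned medium. No wells overlapped in this 2.39-fold fall (log2 fold change -1.26, SE 0.16, adjusted p = 0.000409). Its call beyond 1.5-fold (adjusted p = 0.0117) was lost without untreated replicate 1 (0.0515), untreated replicate 2 (0.0572) or conditioned-medium replicate 1 (0.0601), and with robust dispersion (0.128). Ppard, encoding the broadly expressed PPAR delta, moved the opposite way, from 38.6, 37.6 and 36.6 CPM to 49.0, 53.5 and 45.7 CPM. That rise was 1.32-fold (log2 fold change 0.40, SE 0.06, adjusted p = 0.00146). Ppara, the receptor gene that drives fatty acid oxidation in liver, had 1 count, in conditioned-medium replicate 2. In the 5 libraries without a Ppara count, the limit of 3 counts that a count of 0 allows corresponds to 0.101 to 0.124 CPM. These limits are per total count, without TMM scaling. The ratio of Pparg to Ppard per exon length went from 2.80, 2.69 and 2.16 to 0.824, 0.915 and 0.676, so that Ppard exceeded Pparg in each conditioned-medium well and in none of the untreated wells.

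**Figure D2:**
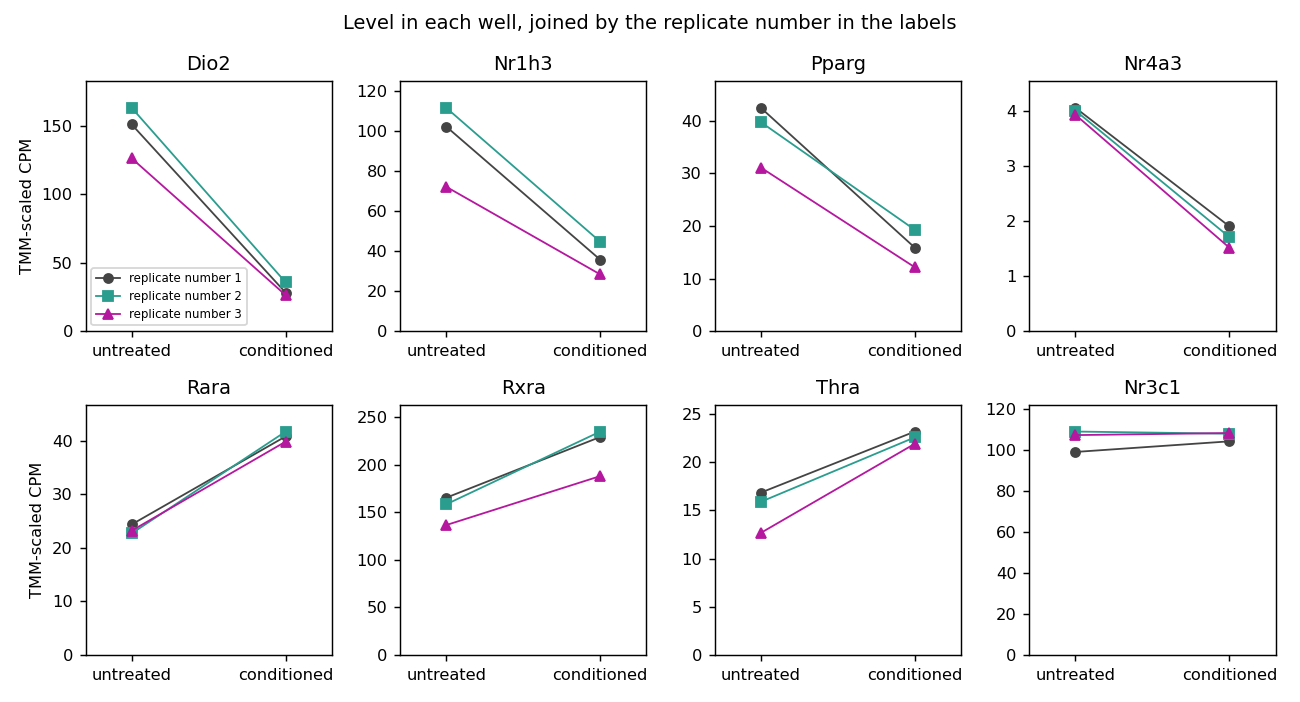
TMM-scaled CPM on axes from 0 for 8 genes in each well, with lines joining wells that share a replicate number in the labels. Dio2, Nr1h3, Pparg and Nr4a3 fall and Rara, Rxra and Thra rise along each of the 3 lines, and Nr3c1 stays between 98.9 and 109 CPM.

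Targets of these receptors did not move together. Of 10 LXR targets, all tested, 4 rose and 1 fell, with a median log2 fold change of 0.09. The cholesterol exporter gene Abcg1 fell from 258 ± 1.66 to 133 ± 1.04 CPM (log2 fold change -0.95), while its partner Abca1 rose (0.56), as did Scd2, a desaturase gene (0.65), and Arl4c (0.58). With the replicate block 4 rose and 3 fell. Of 10 PPAR targets, 9 could be tested, 3 rose and 2 fell, with a median of 0.04. The fatty acid binding protein gene Fabp4 went from 172 ± 14.4 to 99.8 ± 13.2 CPM (log2 fold change -0.79). The lipid scavenger receptor gene Cd36 fell as well (-0.66, SE 0.19, edgeR adjusted p = 0.0298). Its groups overlapped, with untreated well 3 at 298 CPM and conditioned-medium well 2 at 304 CPM. Pdk4, an inhibitor of pyruvate oxidation, rose by 1.94 on the log2 scale from 13 counts in the 3 untreated wells to 63. The 5 PPAR calls came down to 1 without untreated replicate 1 or conditioned-medium replicate 1 and to 3 without untreated replicate 2 or with DESeq2. With the replicate block there were 6, the added gene being Angptl4, a lipase inhibitor gene (adjusted p = 0.0255), which was higher in pairs 1 and 2 and lower in pair 3.

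The retinoic acid receptor genes that could be tested rose, Rarg only narrowly. Rara, encoding retinoic acid receptor alpha (chromosome 11, 98927818 to 98974942), was at 24.4, 22.7 and 23.2 CPM untreated and 40.8, 41.7 and 39.8 CPM in conditioned medium. These are narrow groups that lie well apart, and Rara had the largest called rise of the 30 genes, 1.74-fold (log2 fold change 0.80, SE 0.05, adjusted p = 7.88e-06). Its call beyond 1.5-fold (adjusted p = 0.0110) was lost without untreated replicate 2 (0.0578), conditioned-medium replicate 1 (0.0538) or conditioned-medium replicate 2 (0.0505). Rarg, the gamma receptor gene, was at 29.9, 29.1 and 33.2 CPM untreated and 35.2, 33.9 and 36.3 CPM in conditioned medium. Its rise of 0.19 on the log2 scale passed narrowly (adjusted p = 0.0468). The Rarg call was lost without untreated replicate 1 (0.141) or 2 (0.170), without conditioned-medium replicate 1 (0.115), 2 (0.0613) or 3 (0.108), with DESeq2 (0.105) and with RLE scaling (0.0508). Rarb had 1 count in all 6 libraries. As 34.1% of its exonic bases are shared with Top2b on the opposite strand, reads from them may not have been counted for Rarb. Per exon length, Rara stood below Rarg in the untreated wells, with ratios of 0.796, 0.760 and 0.682, and above it in conditioned medium, with ratios of 1.13, 1.20 and 1.07.

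RXR is the shared partner of the retinoid, thyroid hormone, vitamin D, LXR and PPAR receptors. Rxra (chromosome 2, 27676440 to 27762957) was at 165, 158 and 137 CPM untreated and 229, 235 and 188 CPM in conditioned medium. It rose 1.42-fold without overlap (log2 fold change 0.50, SE 0.09, adjusted p = 0.00346). Rxrb went from 67.0, 67.8 and 69.9 CPM to 77.8, 80.1 and 81.1 CPM, a smaller rise without overlap (log2 fold change 0.22, SE 0.04, adjusted p = 0.00363). Per exon length, the ratio of Rxra to Rxrb was 1.55, 1.47 and 1.23 untreated and 1.86, 1.85 and 1.46 in conditioned medium. It was higher in conditioned medium in each of the 3 pairs of wells that share a number, but the groups overlapped (exact permutation test without pairing, two-sided, p = 0.3). Vdr, the vitamin D receptor gene, was low at 17, 14 and 16 counts untreated and 36, 33 and 29 in conditioned medium. The wells did not overlap, but its log2 fold change of 0.75 (interval 0.17 to 1.34) did not pass the test (adjusted p = 0.0568), and it did without scaling beyond the total count (0.0399).

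Ratios between paralogs do not depend on how libraries are scaled. Of 7 paralog pairs compared after the values were seen, 5 had ratios per exon length that did not overlap between groups. With 3 wells per group the exact permutation test cannot go below p = 0.1, which these 5 pairs reached, with an adjusted p of 0.14 over the 7. The pairs were Nr1h3 to Nr1h2, Pparg to Ppard, Rara to Rarg, Nr1d1 to Nr1d2 and Nr4a3 to Nr4a1, with log2 changes of -1.43, -1.67, 0.61, 0.95 and -1.14. At least 1 gene of each of these pairs was already called on its own. The share of non-overlapping ratios among gene pairs at large was not computed, so 5 of 7 has no background here. Among single tested genes, 42.8% did not overlap.

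**Figure D3:**
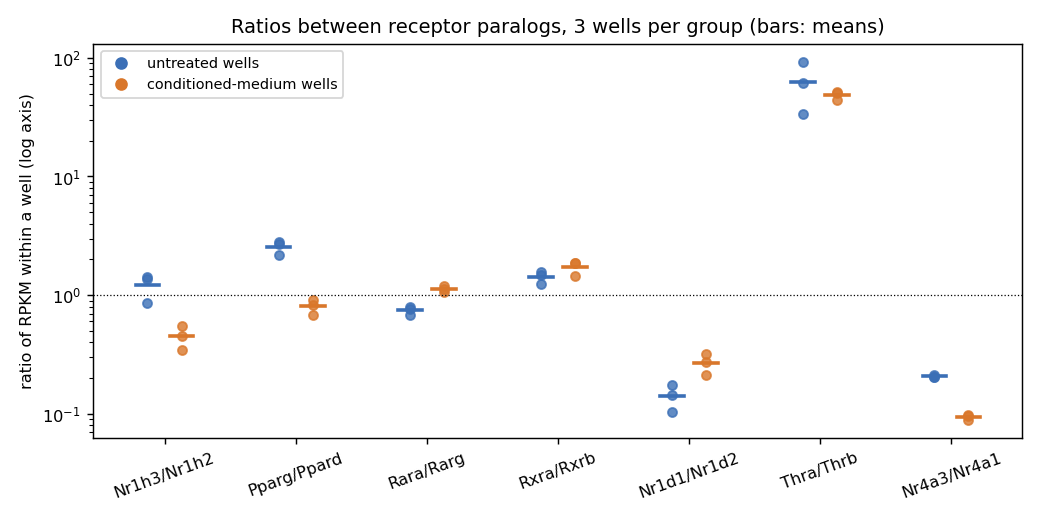
Each point is the ratio of length-scaled levels (RPKM, CPM per kilobase of exon) of 2 paralogs in 1 well, on a log axis, with bars at the group means. The Pparg to Ppard and Rara to Rarg ratios cross the dotted line at a ratio of 1 between untreated and conditioned-medium wells.

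Summed over the 27 receptors, the length-scaled level was 183 to 206 RPKM in the 6 wells, 188 to 206 untreated and 183 to 198 in conditioned medium. Its makeup differed. Nr1h3 held 20.0%, 21.6% and 15.3% of the sum in untreated wells and 7.41%, 8.97% and 6.17% in conditioned medium, going from rank 1 to rank 5 by group mean. Rxra held 12.9%, 12.2% and 11.5% and then 19.0%, 18.8% and 16.3%, going from rank 3 to rank 1 by group mean. Nr1h2 held rank 2 in both groups, at 15.8% ± 1.70 and 16.8% ± 0.833 (SD, n = 3 each), so that neighbours at the top of the untreated order, Nr1h3 and Nr1h2, did not stand apart beyond their spread. Nor did Rxra (18.0% ± 1.497) and Nr1h2 at the top in conditioned medium, where Nr1h2 (17.7%) exceeded Rxra (16.3%) in well 3. Pparg fell from 6.40% ± 0.739 to 2.78% ± 0.522, and Rara went from 2.70% ± 0.154 to 4.89% ± 0.0838. These shares are a description of the makeup and were not tested.

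Nr3c1, encoding the glucocorticoid receptor, did not pass the test. It was at 98.9, 109 and 107 CPM untreated and 104, 108 and 108 CPM in conditioned medium. The wells overlapped, and the log2 fold change of 0.02 had an interval of -0.09 to 0.13 (adjusted p = 0.766). Of 12 genes known as its targets 11 could be tested, 9 rose and 1 fell, with a median log2 fold change of 0.88, a list that was drawn up with changes of some of its genes in these samples known and is no independent evidence of their direction. Cd163, a haemoglobin scavenger receptor gene, rose from 6.15 ± 2.07 to 69.9 ± 4.47 CPM. Il1r2, a decoy receptor gene, rose by 2.76 on the log2 scale and Fkbp5, a cochaperone that limits hormone binding, by 2.09. Sgk1, a kinase gene, did not rise with them but fell from 268 ± 10.7 to 149 ± 6.52 CPM. Nr3c2, the mineralocorticoid receptor gene, was too low to test, with 7, 13 and 9 counts untreated and 9, 6 and 20 in conditioned medium.

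Of 9 genes for steroid receptor chaperones and glucocorticoid activation, Fkbp5 rose and 2 fell. Those 2 encode the Hsp90 proteins that hold the receptor ready for hormone. Hsp90ab1 went from 901 ± 31.5 to 727 ± 27.6 CPM (log2 fold change -0.31, adjusted p = 0.00122) and Hsp90aa1 fell by a log2 fold change of -0.29.

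Of the 3 NR4A genes, ligand-independent receptors induced early by many stimuli, 1 changed. Nr4a3 (chromosome 4, 48045153 to 48086447) had 97, 97 and 98 counts untreated and 58, 52 and 44 in deeper conditioned-medium libraries, or 3.93 to 4.05 CPM against 1.90, 1.71 and 1.51 CPM. The groups did not overlap, and the fall was 2.33-fold (log2 fold change -1.22, SE 0.17, adjusted p = 0.000604). Its call beyond 1.5-fold (adjusted p = 0.0175) was lost without untreated replicate 1 (0.0658), untreated replicate 2 (0.0676) or conditioned-medium replicate 2 (0.0538), and without both wells numbered 3 (0.0511). Nr4a1 was at 11.5, 11.1 and 11.2 CPM untreated and 11.4, 10.5 and 9.97 CPM in conditioned medium (log2 fold change -0.09, interval -0.28 to 0.10). Nr4a2 was near 1 CPM, with 82 counts untreated and 108 in conditioned medium (log2 fold change 0.10, interval -0.48 to 0.68). The TGACG core stands before all 3 genes in the sequences printed, and 1 of them, Nr4a3, was called. The ratio of Nr4a3 to Nr4a1 per exon length was 0.206, 0.211 and 0.206 and then 0.0980, 0.0955 and 0.0889.

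REV-ERB proteins are haem-binding repressors of the circadian clock. Nr1d1, encoding REV-ERB alpha, was at 4.64, 2.64 and 3.65 CPM untreated and 7.28, 6.23 and 4.68 CPM in conditioned medium. The highest untreated and the lowest conditioned-medium well almost met, and the rise was 1.67-fold (log2 fold change 0.74, SE 0.22, adjusted p = 0.0367). That call was lost without untreated replicate 2 (0.121) or 3 (0.0754) or conditioned-medium replicate 1 (0.145) or 2 (0.0953). Nr1d1 and Thra share 263 exonic bases on opposite strands, 8.55% of the Nr1d1 and 5.7% of the Thra exons, and whether strand was used in counting is not given, so both counts are uncertain. Nr1d2, encoding REV-ERB beta, was at 47.0, 44.6 and 44.0 CPM untreated and 39.9, 39.9 and 38.6 CPM in conditioned medium. It fell by a log2 fold change of -0.20 (adjusted p = 0.0135), a call lost without untreated replicate 1 (0.0556) and without scaling beyond the total count (0.0642). Rora, which activates the same sites that REV-ERB represses, had a log2 fold change of -0.09 (interval -0.26 to 0.09). Of 14 clock genes, 4 rose and 3 fell, with a median log2 fold change of 0.15. The largest changes were in the repressor genes Bhlhe40 (-1.34), Nfil3 (1.13) and Bhlhe41 (-1.03).

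The remaining receptors changed little or not beyond the test. Esr1, the estrogen receptor alpha gene, was at 9.40, 8.33 and 10.5 CPM untreated and 11.1, 12.0 and 13.3 CPM in conditioned medium, a rise of 0.37 on the log2 scale (adjusted p = 0.0347). The Esr1 call was lost without untreated replicate 1 (0.0883) or 2 (0.124) or conditioned-medium replicate 2 (0.0800) or 3 (0.0990). Nr2c2, encoding the orphan receptor TR4, went from 28.9, 28.1 and 27.8 CPM to 34.4, 34.5 and 39.9 CPM (log2 fold change 0.36, adjusted p = 0.00366). Its count is uncertain, as 30.7% of its exonic bases are shared with Mrps25 on the opposite strand. Nr2f6 shares 54.4% with Ocel1, and its log2 fold change of 0.26 did not pass (adjusted p = 0.0932, and 0.0137 with the replicate block). Esrra, a regulator of mitochondrial genes, had a log2 fold change of -0.02 (interval -0.11 to 0.08), Nr2c1 of 0.04 (interval -0.14 to 0.21) and Nr6a1 of 0.18 (interval -0.20 to 0.57). Of the 22 other nuclear receptor genes of the mouse, 11 had no counts in any well and Pgr, the progesterone receptor gene, was the only one that could be tested. It was not called by edgeR, DESeq2 or limma-voom, and its unadjusted p was above 0.05.

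Among the 5 coregulators 1 rose and 1 fell, each by less than 1.5-fold. Ncoa3, a p160 coactivator with acetyltransferase activity, was at 278, 278 and 290 CPM untreated and 252, 237 and 247 CPM in conditioned medium. The groups did not overlap, and its log2 fold change was -0.20 (SE 0.04), a call at adjusted p = 0.00734. Ncor1, the corepressor that carries HDAC3 to unliganded receptors, was at 185, 183 and 190 CPM and then 204, 201 and 215 CPM. Its rise of 0.15 on the log2 scale (adjusted p = 0.0268) was lost without untreated replicate 1 (0.0837) or 2 (0.109) or conditioned-medium replicate 1 (0.0698) or 3 (0.0662). Ncoa1 and Ncoa2, the other p160 coactivators, each had a log2 fold change of 0.09 and did not pass, although Ncoa2 was called without scaling beyond the total count (0.0181). Nrip1, a ligand-dependent corepressor, had a log2 fold change of 0.04 (interval -0.14 to 0.21). Of 24 other coregulator genes 23 could be tested, and 5 fell and 0 rose. That is 21.7% called, against 27.9% of all tested genes. With the block 6 fell and 2 rose, while without scaling beyond the total count 4 fell and 4 rose. The falls included Hr, a corepressor of thyroid hormone receptor at 48 counts untreated and 16 in conditioned medium (log2 fold change -1.86), Pprc1 (-0.34) and Ncoa4, also the ferritin autophagy receptor (-0.29).

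**Figure D4:**
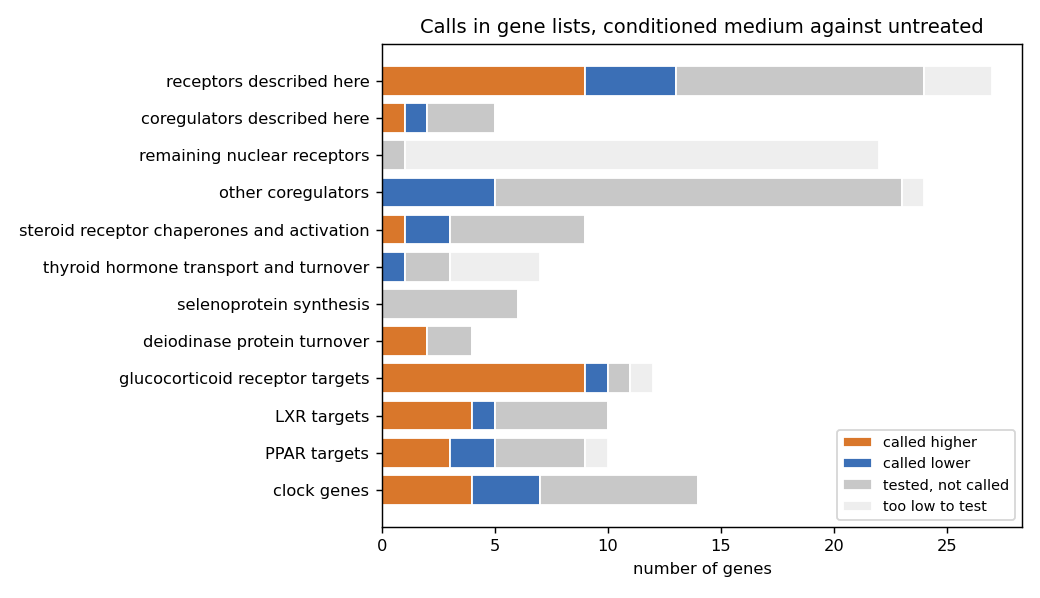
Bars count the genes of each list that were called higher, called lower, tested without a call or too low to test. Among glucocorticoid receptor targets 9 of 12 are called higher, and of the remaining nuclear receptors 21 of 22 were too low to test.

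Several of these genes differed between wells of the same group. Among the 30 tested genes, Dio2, Nr1h3, Pparg, Rxra, Thra, Ppard, Nr4a3, Nr1d2, Rora and Nrip1 had their lowest value of each group in the well numbered 3. The share of all genes with that pattern was not counted. Without both wells numbered 3, 10 of the 30 genes rose and 6 fell, as with all wells.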

How the data were processed

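The authors deposited whole-number read counts per gene with exon coordinates and lengths. The submitters' processing notes name HISAT2, featureCounts and the build GRCm38; the sources used here give no versions, strand setting or annotation release. A reference table of gene names gave symbols by Ensembl identifier for 55154 of 55421 rows, and exons for overlaps came from GENCODE M21. Promoters came from RefSeq.

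Genes were kept with filterByExpr, scaled by TMM and compared by edgeR's quasi-likelihood test (edgeR 4.0.16 in R 4.3.3, with limma 3.58.1 for voom), with Benjamini-Hochberg adjustment over all 13853 tested genes and a threshold of 0.05. P-values not otherwise named come from it. Levels are TMM-scaled CPM, and RPKM divides them by kilobases of exon. Intervals are 95%. Alternatives were RLE scaling, no scaling, DESeq2 1.42.0, limma-voom, robust dispersion, 2 other filters, a replicate block, and leaving out libraries. Scripts were tested on simulated data. The members and lists were chosen with earlier results of these data known. Members are all accounted for, and other lists give up to 3 genes with the largest called change, or the gene with the smallest p where none passed, as named genes. Abca1, Slc3a2, Wsb1, Angptl4, Dio1, Dio3, Sgk1, Cyp24a1, Lrat and Stra6 were named after their values were seen. Retinoid, vitamin D and oxysterol lists are in the closing section.

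Depth was 24179548 to 30040682 counts, and limits for 0 counts cover counting error only. Deviations from group means correlated at 0.328, 0.161 and 0.309 for wells sharing a replicate number. The main test left these numbers out, so its p-values, SEs and intervals are unpaired. Pairs were used only in the replicate block and in differences between wells of the same number. Libraries of 1 group differed by more than sampling noise.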

Additional observations from a re-analysis of the deposited data

How the results depend on the processing

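Calls of the 30 tested genes were compared over 448 combinations of gene and alternative. In 422 the call was the same, in 21 it was lost, in 5 it was gained and in 0 the direction of a called gene turned. Called in each fit were 11 genes (Dio2, Ncoa3, Nr1h3, Nr2c2, Nr4a3, Ppard, Pparg, Rara, Rxra, Rxrb and Thra). The share of all tested genes called in each fit was not computed, so 11 of 30 says nothing particular about this family. Leaving out 1 library gave 12 to 15 called genes, 6 to 9 higher and 5 to 6 lower, 2 to 5 beyond 1.5-fold, and 2725 to 3654 changed genes over the whole table. The count of higher genes was 6 without untreated replicate 2, against 10. Calls beyond 1.5-fold numbered 3 with robust dispersion, and 2 without untreated replicate 2 or conditioned-medium replicate 1, against 5. The cause was not tested. The replicate block gave 17 called genes against 16, adding Nr2f6, and 5023 changed genes in all. It changed no other call among the 30. List counts under the alternatives were added after seeing the data. Thrb, Vdr and Nr4a2 had 32 to 108 counts per group and wide intervals, although Hr was called at 48 and 16 counts.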

Other observations

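Enzymes that make or clear the ligands of these receptors were mostly scarce. Of 17 genes for retinoid and vitamin D metabolism 8 could be tested and 1 changed, Dhrs3, a retinal reductase gene, which fell from 339 ± 12.7 to 289 ± 13.3 CPM (edgeR, log2 fold change -0.23, adjusted p = 0.00773). Cyp24a1, Lrat and Stra6 had no counts in any well. Of 4 genes for oxysterol metabolism 2 could be tested and 1 rose, Cyp27a1, the sterol 27-hydroxylase gene, from 104 ± 3.93 to 129 ± 5.30 CPM (log2 fold change 0.31, adjusted p = 0.00138).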
